A study of Mus musculus with 6 samples.

Results

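The genes described here are Mtor, Rptor, Deptor, Rheb, Tsc1, Tsc2, Sesn1, Sesn2, Sesn3 and Larp1, which encode components and regulators of the growth-controlling kinase complex mTORC1, the sestrins and the RNA-binding protein LARP1. They were taken by symbol as a list of pathway genes and are 10 of the 55401 Ensembl gene identifiers in the count table. All 10 were matched to 1 identifier each, and all 10 passed the filter on low counts that left 17778 genes for testing.

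The levels come from poly(A) RNA of mouse embryonic stem (ES) cells, pluripotent cells cultured from the early embryo, in a study of TAF13, a subunit of the general transcription factor TFIID. One group is 3 libraries labelled KO, from cells given doxycycline, an antibiotic often used to switch engineered transgenes. The other is 3 libraries labelled as expressing 3XHA-Taf13, an epitope-tagged Taf13, from untreated cells. Both groups were cultured for 7 days, with 1 Petri dish per library. The labels name no ES cell line, strain or clone and do not say how the drug acts on the tagged gene, and the drug and the KO label cannot be told apart. No label says that the dishes came from separate cultures, so p-values measure the spread between dishes of each condition.

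mTORC1 is a protein kinase that lets cells grow when nutrients and growth factors are present. MTOR is its catalytic subunit, RPTOR recruits substrates and DEPTOR binds and restrains the kinase. RHEB, a small GTPase on the lysosome, activates it, and the TSC1–TSC2 complex switches RHEB off. Amino acids act through the Rag GTPases and the GATOR complexes, and sestrins bind GATOR2 and restrain the pathway when leucine is scarce or cells are stressed. LARP1 binds the cap and the terminal oligopyrimidine (TOP) tract of mRNAs for ribosomal proteins and translation factors, and links their translation and stability to mTORC1. In mouse ES cells, partial inhibition of mTOR is known to bring on a paused state resembling embryonic diapause.

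Total counts ran from 33953189 to 50328010 in the libraries labelled KO and from 31219328 to 45957003 in the expressing libraries. The targeted gene did not check the labels. Taf13 (ENSMUSG00000048100) had 422, 634 and 699 counts in the libraries labelled KO, against 244, 445 and 447 counts in the expressing libraries, a log2 fold change of 0.40 (SE 0.147; adjusted p = 0.0578, edgeR). It was called higher in 9 of 14 alternatives, which gave 0.28 to 0.57, among them DESeq2 (0.41, adjusted p = 0.0277), library totals (0.49, 0.0197), removal of the GC trend (0.33, 0.00817) and the replicate number as a block (0.41, 0.0241). It was not called without expressing replicate 2 (adjusted p = 0.1, edgeR) or KO replicate 1 (0.0789), 2 (0.166) or 3 (0.15). The direction is thus not that of a fall in Taf13 mRNA, though the reported fit did not call it. Reads of a tagged copy cannot be told from those of the chromosomal gene. The ES cell identity was checked on 12 markers: their summed level ran from 3478 to 3538 CPM (counts scaled to each library's size) in the libraries labelled KO and from 4823 to 5016 CPM in the expressing libraries, and 11 of the 12 fell. All 12 markers of primitive endoderm, the neighbouring lineage of the blastocyst, rose, with sums of 1072 to 1095 CPM in the libraries labelled KO against 387 to 466 CPM in the expressing libraries. Fibroblast markers, which feeder cells would bring, summed to 96 to 183 CPM in the libraries labelled KO and 108 to 136 CPM in the expressing libraries, with 2 of 9 tested higher and 1 lower, and of those 10 markers Fap was at 0 in at least 1 library. The part of these shifts in cell identity in the results below was not tested, and in bulk RNA fewer cells of a type and less RNA per cell cannot be told apart.

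Of the 10 genes, 4 fell in the libraries labelled KO and 0 rose (edgeR's quasi-likelihood test, Benjamini-Hochberg adjusted p under 0.05 over all tested genes). Deptor, Sesn1, Larp1 and Rptor fell, while Mtor, Rheb, Tsc1, Tsc2, Sesn2 and Sesn3 did not pass. Over all tested genes 20.8% were lower and 19.2% higher by the same rule. The median log2 fold change of the 10 genes was -0.16, against -0.01 over all tested genes, and their median absolute log2 fold change was 0.17, against 0.29. DESeq2 called the same number in each direction, and 5 genes were lower and 1 higher at an unadjusted p under 0.05. The libraries of the groups did not overlap for 7 of the 10 genes, against 53.5% of all tested genes. Without expressing replicate 1, 4 fell and 3 rose, and with libraries scaled by their totals alone 3 fell and 2 rose. That scaling also raised the share of higher genes among all called genes to 63.5%, against 48.1%. Without expressing replicate 1 that share was 51.4%. The share of all tested genes called in these alternative fits is not given here, so their counts have no background beside them.

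**Figure D1:**
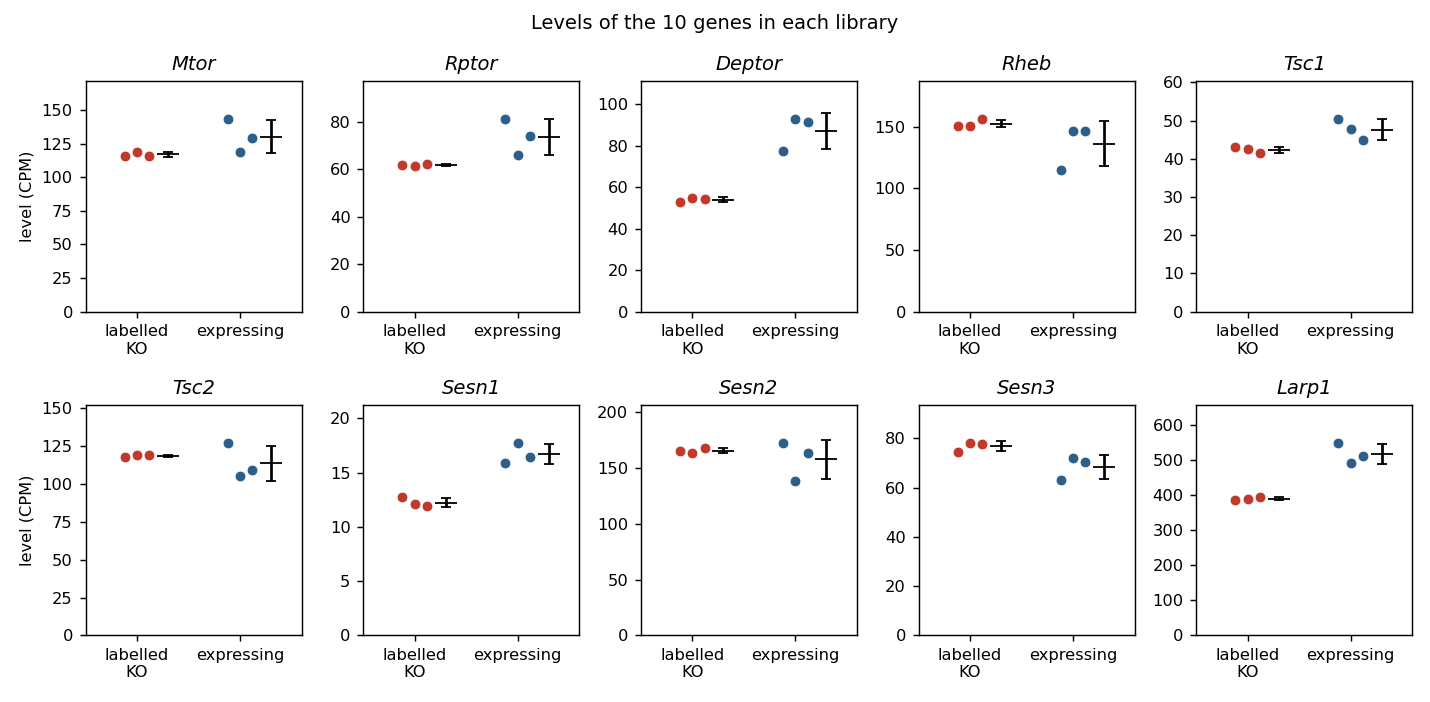
Level of each gene in CPM (linear axis from 0) in the 3 libraries labelled KO (red, left) and the 3 expressing libraries (blue, right), with the mean and SD as a black bar. Deptor, Sesn1, Larp1 and Rptor lie lower in every library labelled KO than in any expressing library, while for Mtor, Tsc2 and Sesn2 the groups overlap.

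Deptor (ENSMUSG00000022419; mm10 chromosome 15, 55112317 to 55259271, plus strand), the gene of the mTOR inhibitor, had the largest change of the 10. It was at 52.8, 55.0 and 54.1 CPM in the libraries labelled KO, against 77.2, 92.6 and 91.5 CPM in the expressing libraries. The groups lie well apart, and the lowest expressing library is replicate 1. Deptor fell by 38.0%, with a log2 fold change of -0.69 (SE 0.0784, 95% interval -0.87 to -0.51; adjusted p = 0.000148, edgeR), and 81% of the tested genes had a smaller absolute change. Leaving out any single library gave -0.74 to -0.64, and the call was kept in all 6 of these fits.

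Rptor (ENSMUSG00000025583; chromosome 11, 119602905 to 119899576, plus strand), which encodes the substrate-recruiting subunit, fell less. Its levels were 62.1, 61.3 and 62.3 CPM in the libraries labelled KO and 81.1, 66.2 and 74.0 CPM in the expressing libraries. All 3 libraries labelled KO lie just under the lowest expressing one, and the expressing libraries spread widely. The log2 fold change was -0.25 (SE 0.0779, 95% interval -0.43 to -0.08; adjusted p = 0.0279, edgeR). This was the least secure of the decreases: adjusted p was 0.0973 when expressing replicate 3 was left out, 0.0838 when KO replicate 1 was, 0.0952 for KO replicate 2 and 0.0861 for KO replicate 3, and 0.161 with library totals (edgeR). Leaving out expressing replicate 1 kept the call with a smaller change (-0.15, adjusted p = 0.0123).

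Mtor (ENSMUSG00000028991; chromosome 4, 148448611 to 148557683, plus strand), the kinase gene itself, did not pass the test. It was at 116, 119 and 116 CPM in the libraries labelled KO, against 143, 119 and 129 CPM in the expressing libraries. The groups overlap through expressing replicate 2. The log2 fold change was -0.16 (SE 0.0726, 95% interval -0.32 to 0.01; adjusted p = 0.114, edgeR), so a decrease beyond 0.32 lies outside the interval. Without expressing replicate 2 it passed, at -0.22 (adjusted p = 0.0324, edgeR), and with the trend of counts on GC content removed it passed at -0.13 (0.0142). It was -0.06 (0.272) without expressing replicate 1 and -0.07 (0.532) with library totals.

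The other subunits of the complex were read from a list of mTORC1 and mTORC2 partners, in which 3 of 9 tested genes fell and 1 rose. Among all tested genes 20.8% were lower and 19.2% higher. Mlst8, the subunit shared by both mTOR complexes, averaged 11.9 ± 0.365 CPM in the libraries labelled KO (SD, n = 3) and ran from 15.8 to 19.1 CPM in the expressing libraries (log2 fold change -0.52, SE 0.0962, adjusted p = 0.00241, edgeR). Its exons overlap those of Bricd5 on the opposite strand over 22.5% of their length, so its value is uncertain to that extent. Akt1s1, which encodes the mTORC1 inhibitor PRAS40, fell by 0.40 on the log2 scale (SE 0.104), a call lost without KO replicate 3 (adjusted p = 0.0626, edgeR) and with library totals (0.057). Prr5l, an mTORC2 component, rose by 0.98 (SE 0.0901), to 11.9 ± 0.487 CPM in the libraries labelled KO against 5.99 ± 0.152 CPM in the expressing libraries. The list gave 3 higher and 4 lower without expressing replicate 1, 1 higher and 1 lower without KO replicate 3, and 2 higher and 1 lower with library totals. Removal of the GC trend gave 2 higher and 6 lower.

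Rheb (ENSMUSG00000028945; chromosome 5, 24802823 to 24842624, minus strand), the GTPase that activates mTORC1, was at 151, 151 and 156 CPM in the libraries labelled KO, against 115, 147 and 147 CPM in the expressing libraries. The libraries labelled KO lie above all expressing libraries, by little for replicates 2 and 3. It did not pass (log2 fold change 0.16, SE 0.0908, 95% interval -0.04 to 0.37; adjusted p = 0.185, edgeR), and with library totals it passed at 0.25 (0.0279). The value was 0.07 (adjusted p = 0.302) with the GC trend removed and 0.08 (0.0713) without expressing replicate 1. Rhebl1, the gene of a RHEB-like GTPase, fell to 31.1 ± 0.268 CPM in the libraries labelled KO, against 43.2 ± 0.851 CPM in the expressing libraries (SD, n = 3 each; log2 fold change -0.47, SE 0.0622, adjusted p = 0.000355, edgeR), though exons of Dhh on the same strand overlap 18.0% of its exon length.

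Both genes of the TSC complex, which inactivates RHEB, stayed short of the threshold. Tsc1 (ENSMUSG00000026812; chromosome 2, 28641228 to 28691167, plus strand) was at 43.0, 42.5 and 41.5 CPM in the libraries labelled KO, against 50.3, 47.8 and 44.9 CPM in the expressing libraries. These groups do not overlap, yet the gap between them is small (log2 fold change -0.17, SE 0.0671, 95% interval -0.32 to -0.02; adjusted p = 0.069, edgeR). With the GC trend removed Tsc1 passed (-0.17, adjusted p = 0.00844), while it was -0.08 (0.429) with library totals and -0.10 (0.106) without expressing replicate 1. Tsc2 (ENSMUSG00000002496; chromosome 17, 24595816 to 24632630, minus strand), whose product carries the GTPase-activating domain, was at 118, 119 and 119 CPM in the libraries labelled KO, against 127, 105 and 109 CPM in the expressing libraries. The libraries labelled KO sit inside the spread of the expressing ones (log2 fold change 0.06, SE 0.0759, 95% interval -0.11 to 0.23; adjusted p = 0.565, edgeR). Without expressing replicate 1 Tsc2 passed at 0.17 (adjusted p = 0.000555, edgeR), and it was 0.00 (0.985) without expressing replicate 2, 0.10 (0.06) with the GC trend removed and 0.15 (0.208) with library totals. Its exons overlap those of Pkd1 on the opposite strand over 7.2% of their length. Tbc1d7, the third subunit, did not pass (log2 fold change -0.19, SE 0.0861).

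**Figure D2:**
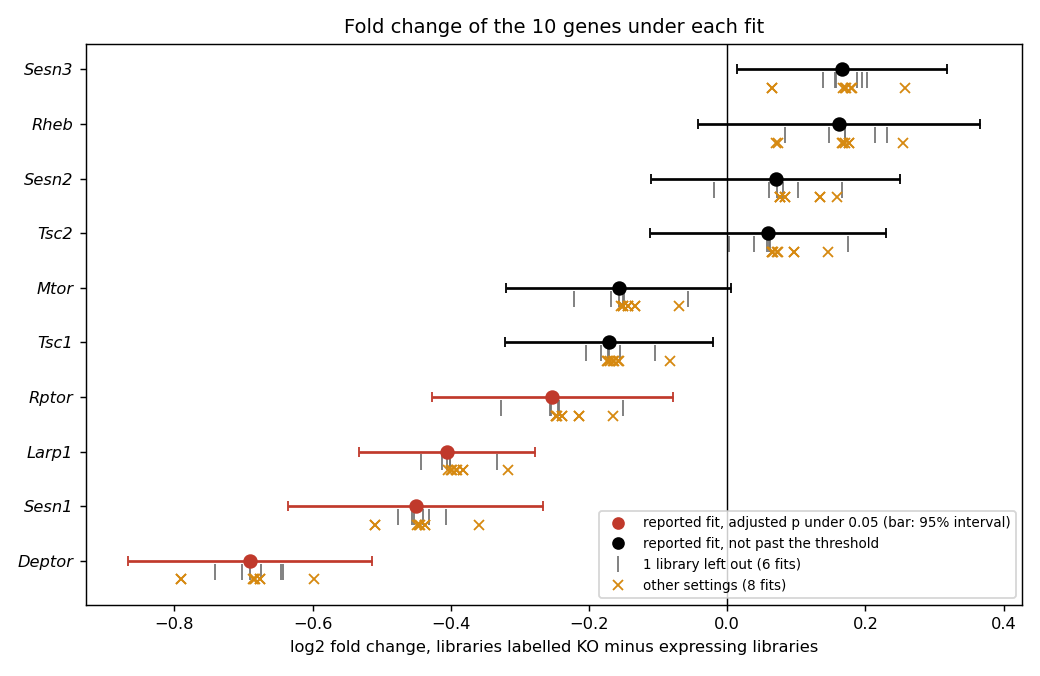
Log2 fold change of each gene (libraries labelled KO minus expressing libraries, horizontal axis) with its 95% interval, red where the adjusted p is under 0.05. Grey ticks are the 6 fits that each leave out 1 library and orange crosses the 8 other settings; Deptor, Sesn1 and Larp1 stay below 0 throughout, and Sesn2 spans 0 with a tick at -0.02.

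Of the 3 sestrin genes Sesn1 fell, while Sesn2 and Sesn3 did not pass; the differences between their changes were not tested. Sesn1 is known as a target of p53 and FOXO factors, Sesn2 as a target of p53 and ATF4 whose product binds leucine, and Sesn3 as a FOXO target. Sesn1 (ENSMUSG00000038332; chromosome 10, 41809935 to 41908424, plus strand) was at 12.7, 12.1 and 11.9 CPM in the libraries labelled KO, against 15.9, 17.7 and 16.4 CPM in the expressing libraries. The groups are separate and both are tight. It fell by 26.7% (log2 fold change -0.45, SE 0.0822, 95% interval -0.64 to -0.27; adjusted p = 0.00219, edgeR), and each fit without 1 library kept the call, at -0.48 to -0.41.

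Sesn2 (ENSMUSG00000028893; chromosome 4, 132492032 to 132510501, minus strand) was at 165, 163 and 168 CPM in the libraries labelled KO, against 172, 138 and 163 CPM in the expressing libraries. The groups overlap, and expressing replicate 2 is the low one. The log2 fold change was 0.07 (SE 0.08, 95% interval -0.11 to 0.25; adjusted p = 0.517, edgeR), so a decrease beyond 0.11 lies outside the interval of this fit. Its direction depended on the expressing libraries: without replicate 2 it was -0.02, and without replicate 1 it was 0.17 and passed (adjusted p = 0.0139, edgeR). With the GC trend removed it passed at 0.13 (0.0258), and with library totals it was 0.16 (0.174).

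Sesn3 (ENSMUSG00000032009; chromosome 9, 14275067 to 14333101, plus strand) was at 74.4, 78.0 and 77.8 CPM in the libraries labelled KO, against 62.9, 71.9 and 70.3 CPM in the expressing libraries. Every library labelled KO is above every expressing one, by a small margin. The log2 fold change of 0.17 (SE 0.0679, 95% interval 0.01 to 0.32) had an unadjusted p of 0.0359 and an adjusted p of 0.0784 (edgeR). It passed without expressing replicate 1 (0.14, adjusted p = 0.0141) and with library totals (0.26, 0.0104), and with the GC trend removed it was 0.06 (0.228).

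Per length of exon, Sesn2 was the main sestrin mRNA in both groups. It made up 85.5, 85.2 and 85.6% of the summed sestrin level in the libraries labelled KO and 85.9, 81.2 and 84.3% in the expressing libraries. Sesn1 made up 5.74, 5.50 and 5.31% in the libraries labelled KO, against 6.96, 9.10 and 7.41% in the expressing libraries. The Sesn1 share was thus lower in each library labelled KO, with a mean difference of -2.31 points and an exact two-sided permutation p of 0.1, the smallest that 3 against 3 libraries can give. The shares of Sesn2 and Sesn3 overlapped between the groups (exact permutation p = 0.4 and 0.5). The summed sestrin level was 55.6 ± 0.67 CPM per kilobase in the libraries labelled KO and 53.9 ± 4.56 CPM per kilobase in the expressing libraries (SD, n = 3 each).

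Of 11 tested transcription factor genes known to act on sestrin genes in mammalian cells, 7 fell and 2 rose. The shares over all tested genes were 20.8% lower and 19.2% higher. Atf4, the main transcription factor of the integrated stress response, averaged 43.6 ± 2.21 CPM in the libraries labelled KO and 211 ± 8.93 CPM in the expressing libraries (SD, n = 3 each; log2 fold change -2.27, SE 0.0655, adjusted p = 1.79e-07, edgeR). Among genes of forkhead factors, Foxo4 fell by 0.69 (SE 0.0612) and Foxo1 by 0.42 (SE 0.0777) on the log2 scale, and Foxo3 rose by 0.30 (SE 0.0541). Trp53, the p53 gene, was not called (log2 fold change 0.11, SE 0.0877, adjusted p = 0.355, edgeR), although a pseudogene matches 20.2% of its longest transcript; it passed when expressing replicate 1 was left out (0.25, adjusted p = 5.13e-07) and when the GC trend was removed (0.14, 0.0291), and Trp73, of the same family, rose by 0.52 (SE 0.112). Foxo1 and Trp73 overlap antisense genes over 7.78% and 5.06% of their exon length.

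Of 5 other tested genes known as ATF4 targets, 3 fell and 1 rose, against 20.8% lower and 19.2% higher over all tested genes. Chac1, which encodes a glutathione-degrading enzyme, averaged 0.988 ± 0.290 CPM in the libraries labelled KO and 19.5 ± 1.99 CPM in the expressing libraries (SD, n = 3 each; log2 fold change -4.28, SE 0.174, adjusted p = 9.21e-07, edgeR). Trib3, a pseudokinase that binds AKT, fell by 2.38 (SE 0.105) and Eif4ebp1, the translation repressor that mTORC1 inactivates, by 0.44 (SE 0.102) on the log2 scale. Ddit4, which encodes REDD1, an activator of TSC, rose to 94.2 ± 3.11 CPM in the libraries labelled KO, against 54.3 ± 2.32 CPM in the expressing libraries (0.80, SE 0.062). Asns, asparagine synthetase, did not pass (-0.12, SE 0.056, adjusted p = 0.12, edgeR).

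**Figure D3:**
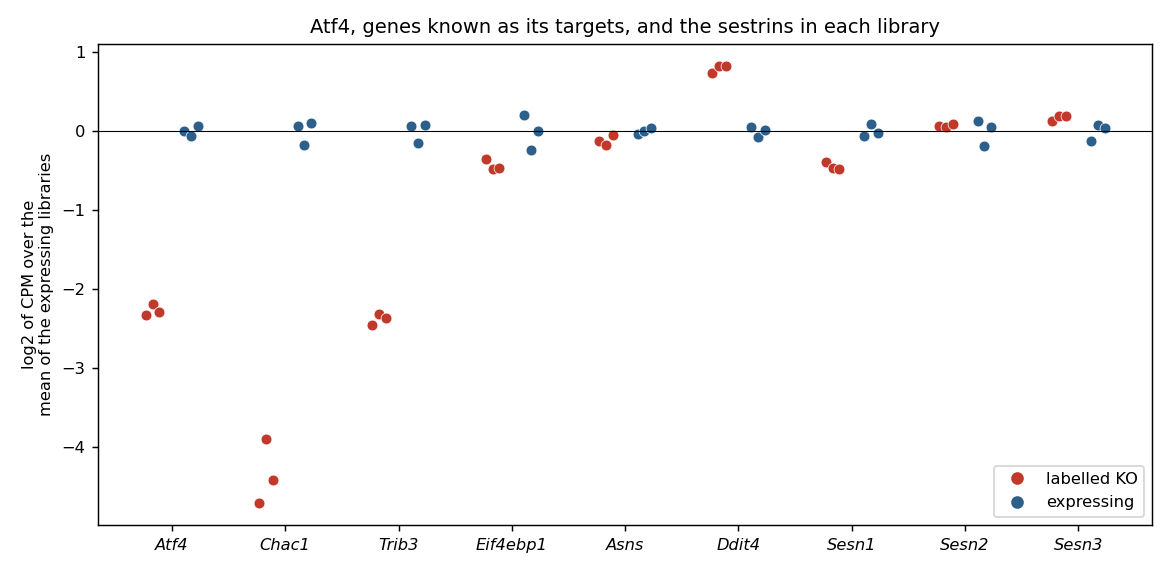
Log2 ratio of each library's CPM to the mean of the expressing libraries (vertical axis) for Atf4, 5 genes known as its targets and the 3 sestrins, libraries labelled KO in red and expressing libraries in blue. Atf4, Chac1 and Trib3 lie more than 2 units down in every library labelled KO, while Sesn2 lies among the expressing libraries.

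Promoter windows from RefSeq (GRCm38.p6, 250 bases before to 50 after the annotated start) were searched on both strands for TGATGNAA, the core of the element bound by ATF4 with C/EBP partners; 3.97% of 32851 windows hold it. Windows were found for 9 of the 10 genes, all but Deptor, and 0 of these held the element. Among the other ATF4 targets, the windows of Chac1, Asns and Trib3 hold it, that of Ddit4 does not, and no window was found for Eif4ebp1. The 250 bases before the start of Sesn2 and Chac1 and the last 100 before that of Asns are shown to set a window without the letters beside one that fell and one that did not pass, with the match in capitals.
Sesn2 (chr4:132510457-132510706, minus strand): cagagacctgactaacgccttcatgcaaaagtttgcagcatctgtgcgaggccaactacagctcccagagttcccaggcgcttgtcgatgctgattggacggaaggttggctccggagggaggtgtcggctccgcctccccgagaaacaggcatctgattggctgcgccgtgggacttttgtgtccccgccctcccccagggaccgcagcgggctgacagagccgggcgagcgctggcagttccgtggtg
Chac1 (chr2:119350992-119351241, plus strand): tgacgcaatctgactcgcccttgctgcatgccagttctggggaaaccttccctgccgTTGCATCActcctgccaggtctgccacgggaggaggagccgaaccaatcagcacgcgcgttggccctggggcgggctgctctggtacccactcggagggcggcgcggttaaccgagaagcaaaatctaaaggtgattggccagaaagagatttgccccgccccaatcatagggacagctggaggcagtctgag
Asns (chr6:7693210-7693309, minus strand): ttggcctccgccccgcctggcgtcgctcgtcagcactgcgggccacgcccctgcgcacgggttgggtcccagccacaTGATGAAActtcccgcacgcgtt
A match is a description of these letters, and Chac1 and Asns, which both hold one, had log2 fold changes of -4.28 and -0.12. The forkhead core TGTTTAC occurs in 3.65% of all windows and in 1 of the 2 Sesn1 windows, starting at base 23 after the start, and in no window of the other members. The E-box CACGTG occurs in 7.15% of windows and, among the members, in that of Rheb only, at 96 bases before the start.

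Larp1 (ENSMUSG00000037331; chromosome 11, 58009064 to 58062034, plus strand), the gene of the TOP mRNA-binding protein, fell. It was at 387, 388 and 395 CPM in the libraries labelled KO, against 548, 491 and 511 CPM in the expressing libraries. No library labelled KO comes near the expressing ones. The decrease was 24.5% (log2 fold change -0.41, SE 0.0568, 95% interval -0.53 to -0.28; adjusted p = 0.000501, edgeR), and fits without 1 library gave -0.44 to -0.33 and kept the call. Of the 6 other genes of the La-related protein family tested, 0 passed in either direction (edgeR; DESeq2 also called 0, and 0 had an unadjusted p under 0.05), among them Larp1b, the closest paralogue (log2 fold change 0.10, SE 0.098), and Larp4 (-0.14, SE 0.115). Without expressing replicate 1, and with the GC trend removed, 2 of the 6 were lower. Other annotated genes match 35.9% of the longest transcript of Larp4, 35.9% of that of Larp7 and 26.3% of that of Ssb. The values of these family members are uncertain to that extent.

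Among 15 tested TOP mRNAs outside the ribosomal protein genes, 13 fell and 1 rose, with a median log2 fold change of -0.35. Over all tested genes the shares were 20.8% lower and 19.2% higher. The number of TOP mRNAs called lower ran from 11 to 14 over the fits without 1 library and was 11 with library totals. Eef1b2, a subunit of the elongation factor that recharges eEF1A, averaged 543 ± 14.1 CPM in the libraries labelled KO and 1106 ± 15.8 CPM in the expressing libraries (SD, n = 3 each; log2 fold change -1.03, SE 0.0499, adjusted p = 1.7e-06, edgeR). Pabpc1, the cytoplasmic poly(A)-binding protein, fell by 0.51 (SE 0.0521). Other annotated genes match 14.3% of the longest Eef1b2 transcript and 11.8% of that of Pabpc1. Vim, the intermediate filament gene vimentin, rose by 1.06 (SE 0.0846). Many of these genes have near-identical processed pseudogenes: Eef1a1, Eef1g and Npm1, named here for this reason, share 87.7%, 72% and 53.8% of their longest transcript with other annotated genes at 95% identity or more, so their values are uncertain. The same holds for Eif3h (81.5%), Tpt1 (44.4%) and Eef2 (43.5%). All of these genes fell, so the count of 13 rests in part on uncertain values.

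**Figure D4:**
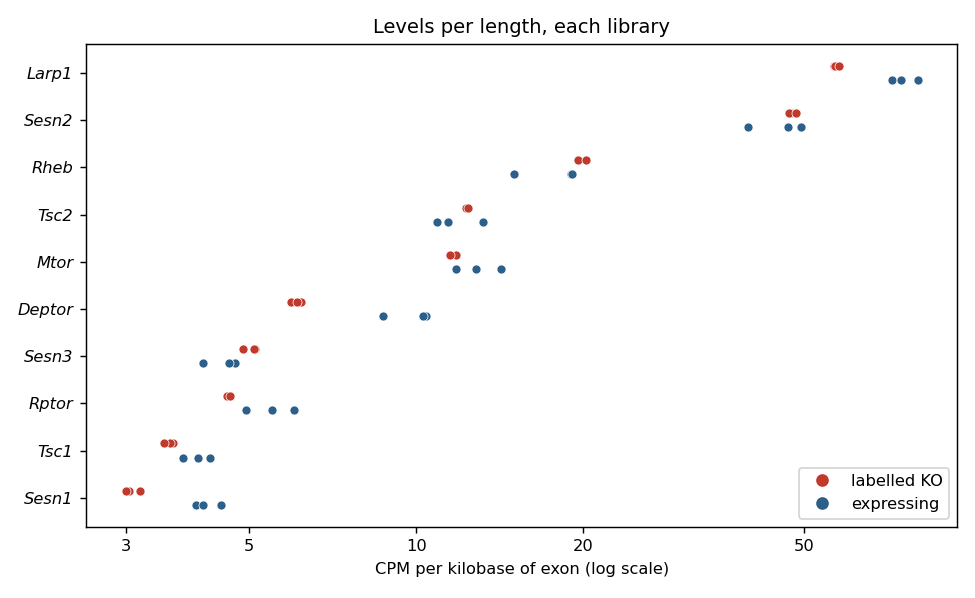
Level of each gene per kilobase of annotated exon (CPM per kilobase, log axis) in the 3 libraries labelled KO (red, upper row of each gene) and the 3 expressing libraries (blue, lower row). Larp1 and Sesn2 stand at the top in both groups and Sesn1 and Tsc1 at the bottom.

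Levels were compared between genes only per kilobase of exon. In the libraries labelled KO the order of the means ran from Larp1 at 57.1 CPM per kilobase through Sesn2 at 47.5, Rheb at 19.8, Tsc2 at 12.3, Mtor at 11.6, Deptor at 6.08, Sesn3 at 5.02, Rptor at 4.59 and Tsc1 at 3.58 to Sesn1 at 3.07, an 18.6-fold range. No neighbours in that order overlapped between libraries. In the expressing libraries it ran from Larp1 at 75.7 through Sesn2 at 45.3, Rheb at 17.7, Mtor at 12.9, Tsc2 at 11.8, Deptor at 9.81, Rptor at 5.48, Sesn3 at 4.48 and Sesn1 at 4.19 to Tsc1 at 4.03 CPM per kilobase. There Mtor and Tsc2 overlapped, as did Sesn3 with Sesn1 and Sesn1 with Tsc1. Parts of the order rest on which exons are counted. With the longest transcript as the length, Rptor stood above Sesn3 and Sesn3 above Deptor in the libraries labelled KO, and in the expressing libraries Tsc2 stood above Mtor, Rptor above Deptor and Tsc1 above Sesn1.

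The balance of kinase and inhibitor mRNA was read from their shares. Of the summed per-kilobase level of Mtor, Rptor and Deptor, Deptor made up 27.0, 27.5 and 27.5% in the libraries labelled KO, against 30.1, 38.5 and 36.1% in the expressing libraries. Mtor made up 52.1, 52.3 and 51.7% in the libraries labelled KO, against 49.1, 43.4 and 44.7% in the expressing libraries. Neither pair of groups overlapped, and each had an exact two-sided permutation p of 0.1, the smallest this design allows. These are not separate changes, because a lower Deptor share raises the other shares of the same library. Mtor itself did not rise: it averaged 11.6 CPM per kilobase in the libraries labelled KO and 12.9 in the expressing libraries. The Rptor share was 20.6 ± 0.398% in the libraries labelled KO and 19.4 ± 1.36% in the expressing libraries (SD, n = 3 each; exact permutation p = 0.3).

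Within a group the genes varied far more between expressing libraries than between libraries labelled KO. The coefficient of variation of the 10 genes ran from 0.424% (Tsc2) to 3.26% (Sesn1) in the libraries labelled KO and from 5.48% (Sesn1) to 13.4% (Rheb) in the expressing libraries; over all tested genes of at least 10 mean CPM the medians were 3.44% and 8.14%. Expressing replicate 1 was the highest or lowest of its group for all 10 genes, against 84% of all tested genes. It was highest for Mtor, Rptor, Tsc1, Tsc2, Sesn2 and Larp1, whose transcripts have GC contents of 51 to 58.7%. It was lowest for Rheb, Deptor, Sesn1 and Sesn3, whose GC contents are 45.9 to 48.5%. Over all tested genes the median GC content was 54.2% where this library was highest and 45.4% where it was lowest. With the GC trend removed, 6 of the 10 genes were lower (Mtor and Tsc1 in addition to the 4 above) and 1 higher (Sesn2). Of all genes called in that fit 43.3% were higher. The share of all tested genes it called is not given here, so these counts have no background beside them.

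Over all the lists pooled, 108 genes outside the 10 were tested, of which 45 (41.7%) fell and 15 (13.9%) rose, with a median log2 fold change of -0.16. The lists were chosen with earlier results of these data known, so these shares cannot be read as a result for the pathway. In the reported fit 20.8% of all tested genes were lower and 19.2% higher. These shares are the background for that fit's list counts, above and below. The share called in the alternative fits is not given here, so list counts from those fits have no background beside them. The pool includes the LARP family, the TOP mRNAs (13 lower) and the transcription factors of sestrin genes (7 lower). It also holds the other ATF4 targets (3 lower), among them Chac1 and Asns. Over the fits without 1 library, 34 to 56 of the pool fell and 11 to 23 rose. The upper end in each direction came without expressing replicate 1. With library totals 36 fell and 19 rose, and with the GC trend removed 60 and 20. Of the 10 Rag GTPase and Ragulator genes, which anchor mTORC1 to the lysosome, 4 fell and 1 rose. Rragb fell by 0.55 (SE 0.0927) and Lamtor4 by 0.45 (SE 0.1) on the log2 scale, while Slc38a9, the lysosomal arginine sensor, rose by 0.56 (SE 0.0732), to 57.9 ± 1.93 CPM in the libraries labelled KO against 39.1 ± 2.95 CPM in the expressing libraries (SD, n = 3 each). With library totals 2 of these genes rose. Of 11 genes of GATOR1, KICSTOR and GATOR2, the complexes that relay amino acid supply, 5 fell and 0 rose (edgeR; 0 also at DESeq2's adjusted threshold and at an unadjusted p under 0.05). Mios, the GATOR2 subunit gene, fell to 30.2 ± 0.246 CPM in the libraries labelled KO, against 50.4 ± 4.41 CPM in the expressing libraries (log2 fold change -0.74, SE 0.0777, adjusted p = 9.65e-05, edgeR), and Wdr59 fell by 0.49 (SE 0.0732). The decreases numbered 3 without expressing replicate 3 or any single KO replicate, and 2 genes of this list rose without expressing replicate 1.

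Of the 4 amino acid and S-adenosylmethionine sensor genes, 2 fell and 1 rose. Lars, leucyl-tRNA synthetase, fell by 0.48 (SE 0.0522). The calls of Castor1, an arginine sensor (-0.41, SE 0.138), and Bmt2, which encodes the S-adenosylmethionine sensor SAMTOR (0.50, SE 0.173), were kept in 2 and 3 of the 6 fits without 1 library. Castor1 was not called when expressing replicate 3 (adjusted p = 0.054), KO replicate 1 (0.0543), 2 (0.119) or 3 (0.142) was left out, nor Bmt2 when KO replicate 1 (0.128), 2 (0.104) or 3 (0.0837) was (edgeR). Both kept the call with smaller changes when expressing replicate 1 was left out, Castor1 at -0.21 and Bmt2 at 0.32.

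Of 21 genes that carry growth factor and energy signals to TSC, 9 rose and 2 fell, with a median log2 fold change of 0.12. Ddit4l, the paralogue of Ddit4, rose by 1.24 (SE 0.0903), to 57.5 ± 3.11 CPM in the libraries labelled KO against 24.3 ± 2.69 CPM in the expressing libraries (SD, n = 3 each). Both decreases, of Pik3r2 (-0.37, SE 0.111), a regulatory subunit of PI3-kinase, and Stk11 (-0.28, SE 0.0864), the AMPK-activating kinase LKB1, missed the threshold without KO replicate 1, 2 or 3, at -0.40 to -0.31 for Pik3r2 and -0.31 to -0.26 for Stk11, and with library totals (-0.28 and -0.19). Pik3r2 also missed it without expressing replicate 3 (-0.38, adjusted p = 0.0658, edgeR). Both passed with smaller changes when expressing replicate 1 was left out, Pik3r2 at -0.21 and Stk11 at -0.15. Over the fits without 1 library, 6 to 10 of the list were higher and 0 to 4 lower. The upper end in each direction came without expressing replicate 1. With library totals 9 were higher and 0 lower.

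Of 16 tested mTORC1 substrates and translation factors under its control, 6 fell and 0 rose (edgeR; by DESeq2 6 fell and 1 rose). Eif4b, which stimulates the helicase eIF4A, was at 389.7, 387 and 399 CPM in the libraries labelled KO, against 737, 724 and 753 CPM in the expressing libraries, and fell (log2 fold change -0.91, SE 0.0496, adjusted p = 2.92e-06, edgeR). Eif4a1, the helicase gene, fell by 0.90 (SE 0.0575), though 43.5% of its longest transcript is matched by other annotated genes. Rps6kb1, the gene of S6 kinase, narrowly missed the threshold (log2 fold change 0.26, SE 0.0945, adjusted p = 0.0505, edgeR) and passed in 10 of 14 alternatives. Among them were the fits that left out expressing replicate 1 (0.18, adjusted p = 0.000184), 2 (0.33, 0.0257) or 3 (0.33, 0.0409). It missed the threshold without KO replicate 1 (0.26, adjusted p = 0.126, edgeR), 2 (0.28, 0.108) or 3 (0.25, 0.14). Without expressing replicate 1, 9 of the list were lower and 2 higher, and with the GC trend removed 11 and 2.

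**Figure D5:**
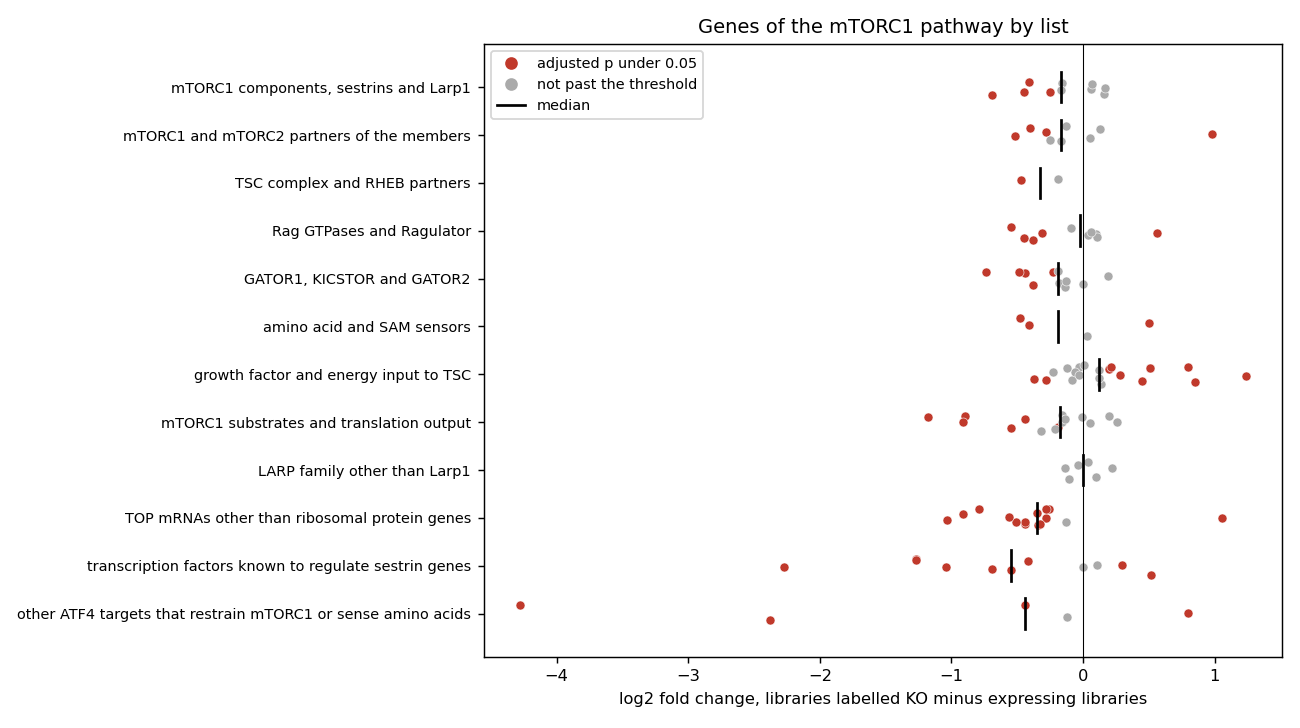
Log2 fold change (libraries labelled KO minus expressing libraries, horizontal axis) of every tested gene in each pathway list, red where the adjusted p is under 0.05 and grey otherwise, with the list's median as a black line. The TOP mRNA list lies mostly below 0 (13 of 15 lower), and the growth factor and energy list has 9 of its 21 genes higher.

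The genes whose profiles over the 6 libraries lay nearest to those of the 3 members that changed most were listed by the root mean square difference of log2 CPM, centred on the expressing mean, among 14075 genes of at least 1 mean CPM. For Deptor they were Ibtk (0.0187), Camk1d (0.0261) and Arhgap19 (0.0341). For Sesn1 they were Paics (0.0286), E330009J07Rik (0.0296) and Cbx1 (0.0298). For Larp1 they were Pcnt (0.0167), Sf3b2 (0.0212) and Tfe3 (0.022).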

How the data were processed

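Messenger RNA was sequenced from 6 libraries of mouse ES cells, 3 labelled KO with doxycycline and 3 labelled as expressing 3XHA-Taf13 without treatment, with 800 ng of RNA as input to a strand-marking poly(A) library kit, per the labels' protocols. The authors deposited 1 table of raw read counts per Ensembl gene. The submitters' processing notes name mm10 and the tools STAR 2.5.3a, HTSeq 0.6.1p1, cutadapt 1.10 and bcl2fastq 2.20.0.422. How strand was set in counting, and which annotation was counted, is not given in the sources used here, so reads of genes overlapping on opposite strands may not be fully separated. How reads matching several genes were treated is not given there either.

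A GENCODE annotation of that build supplied symbols, positions, exon lengths and GC contents, matched on gene identifier. Counts were filtered with filterByExpr (minimum count 10), scaled by TMM and tested with edgeR 4.0.16 (R 4.3.3; glmQLFit, robust, group as the only term); p-values were adjusted over 17778 genes. The alternatives were DESeq2 1.42.0, its size factors, library totals as scaling, no filter and a filter of 1 CPM in 3 libraries, removal of the GC trend (loess, span 0.3), the replicate number as a block, each library left out in turn, and the longest transcript as length. Standard errors and 95% intervals come from the test statistic. The code was tested on simulated data. Exact permutation tests used SciPy 1.17.1, and near-identical copies were sought with BLAST 2.17.0. Among the members, at most 4.93% of the longest transcript was matched elsewhere at 95% identity, apart from Tsc2 (11.1%, by Pkd1).

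No 2 libraries of a group were alike within sampling noise: chi-square over its degrees of freedom ran from 3.27 to 33.9, with the highest values, 33.9 and 27.5, in the pairs that include expressing replicate 1.

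The members and the pathway lists were chosen with earlier results of these data known. Named are all members, in each list the 2 called genes with the smallest p per direction among those of at least 1 mean CPM, and Taf13, Mlst8, Akt1s1, Ddit4, Eif4ebp1, Rps6kb1, Atf4, Trp53, Foxo1 and Foxo3; Larp1b, Larp4, Tbc1d7, Asns and the genes named for shared sequence were added after their values were seen. The symbol Kics2 was not matched and is not analysed here, and Eif4ebp3 and Trp63 did not pass the filter.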

Additional observations from a re-analysis of the deposited data

How the results depend on the processing

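Deptor, Sesn1 and Larp1 kept their direction and their call under all 14 alternatives, at -0.79 to -0.60, -0.51 to -0.36 and -0.44 to -0.32 on the log2 scale. Leaving out 1 library moved the other members over these ranges: Rptor -0.33 to -0.15, Mtor -0.22 to -0.06, Rheb 0.08 to 0.23, Tsc1 -0.20 to -0.10, Tsc2 0.00 to 0.17, Sesn2 -0.02 to 0.17 and Sesn3 0.14 to 0.20. The number of members called lower ran from 3 to 5 and the number called higher from 0 to 3 in those fits. For the pooled list genes the number called lower ran from 34 to 56 and the number called higher from 11 to 23. The share of all tested genes called in those fits is not given here. With library totals, Rptor (-0.17) was no longer called, Rheb (0.25) and Sesn3 (0.26) were, and 2 members were higher. With the GC trend removed, Mtor (-0.13), Tsc1 (-0.17) and Sesn2 (0.13) were called and 1 member was higher. The cause was not tested. The sample titles do not say whether same-numbered dishes were paired. Deviations of same-numbered libraries correlated at 0.035, -0.068 and 0.082 across genes, which with 3 dishes a group cannot decide it. With the replicate number as a block no member's call changed (Rptor -0.25, adjusted p = 0.0361, edgeR), while Taf13 (0.41, 0.0241) and Rps6kb1 (0.27, 0.0413) came to be called, and block and GC trend removal together gave Mtor -0.13, Tsc1 -0.17, Sesn2 0.13 and 1 member higher. With the longest transcript as length the share differences kept their sign, at -2.29 points for Sesn1, 1.27 for Sesn2 and 1.02 for Sesn3; the moves of Sesn2 and Sesn3 are within the SD of the expressing libraries but exceed that of the libraries labelled KO. Input RNA was equal and no spike-in is named, so a change of all mRNA per cell would not appear, and intervals cover the spread between 3 dishes a group only.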
